A study of Homo sapiens with 24 samples.

Results

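The 10 genes EGR1, EGR2, EGR3, IER2, IER3, IER5, KLF2, KLF4, KLF6 and KLF10 are known as immediate early genes. Such genes are switched on within minutes of a growth factor or stress signal without new protein synthesis. Genes that share the name EGR, IER or KLF are called a family here, and not every gene of a family is an immediate early gene. The 10 genes were taken from the table of counts by their Ensembl identifiers, as 10 of its 63299 genes, with no filter on their values. They were chosen with earlier results of these data known. KLF4 did not reach the minimum count, so the tests cover 9 of the 10 genes among 20240 genes tested. The design asks how 5-FdU-ECyd, a drug that acts in part on RNA synthesis, alters transcripts in platinum-sensitive and platinum-resistant cells, and how the lines differ in this.

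EGR1, EGR2 and EGR3 encode early growth response factors, zinc finger transcription activators that are held in check by the co-repressors NAB1 and NAB2. IER2, IER3 and IER5 encode small immediate early response proteins, of which IER3 is known for its part in cell survival under stress. KLF2, KLF4, KLF6 and KLF10 are Krüppel-like zinc finger factors, and KLF10 is known as an early target of TGF-beta. Transcripts of this class are in general short-lived. Many are switched on through serum response factor (SRF), which binds CArG boxes together with ETS partners that ERK kinases phosphorylate, and many are removed quickly through AU-rich elements in the 3′ UTR, so that their levels follow synthesis and decay closely.

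The cells were the platinum-sensitive ovarian cancer line A2780 and A2780cis, its platinum-resistant derivative, which was kept with 1 μM cisplatin for a passage at intervals of 2-3 passages. Treated cells were kept in medium that held 5-FdU-ECyd at 1 μM and were harvested 6 h or 12 h later, and untreated cells received fresh standard medium at the same moment and were harvested with them, so that every group had a change of medium. 5-FdU-ECyd is a duplex drug of 5-FdU, which blocks DNA synthesis, and ECyd, which blocks RNA polymerases. Each of the 8 groups of line, treatment and time held 3 libraries, which the study calls biological triplicates, and p-values measure the spread between these libraries.

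The 24 libraries held between 11077368 and 21901406 counts, and the 10 genes together made up 0.0109% to 0.0496% of them. Of 10 markers of ovarian epithelium, KRT7 was at 0 counts throughout and PAX8, SOX17, WT1, CDH1 and MUC16 had at most 2, whereas KRT18 reached 0.718 to 3.27 CPM (counts relative to the size of the library) in A2780 and 20.6 to 28.4 CPM in A2780cis. EPCAM ran the other way, with 0.473 to 1.96 CPM in A2780 and 0.0730 to 1.12 CPM in A2780cis. In untreated A2780cis against A2780, 2 of 3 tested epithelial markers were higher at both times, beside 25.0% of all tested genes at 6 h and 25.4% at 12 h. EPCAM was lower at 12 h (log2 FC -2.27 ± 0.46, adjusted p = 1.46e-04). The leukocyte marker PTPRC and the endothelial markers PECAM1 and VWF had at most 1 count in any library, and 3 of 4 leukocyte markers had at most 5. The other one, CD68, was found in all libraries, at 2.22 to 3.88 CPM in A2780 and 5.70 to 8.38 CPM in A2780cis, and was higher in untreated A2780cis at both times (log2 FC 1.16 ± 0.19, adjusted p = 1.52e-05 at 6 h, and 1.32 ± 0.17, adjusted p = 3.76e-07 at 12 h). All 4 fibroblast markers were detected and were lower in untreated A2780cis at both times, with COL1A1 at 3.52 to 16 CPM in A2780 and 0.10 to 2.99 CPM in A2780cis. Of all 20240 tested genes, 9695 differed between the untreated lines in either direction at 6 h and 10698 at 12 h. At 12 h, 1 of 3 tested epithelial and 1 of 4 tested fibroblast markers were higher in treated cells of each line. These counts are near the shares of all tested genes, 28.6% in A2780 and 31.0% in A2780cis. The part of these markers in the results was not tested. Levels below are CPM on the scale of trimmed mean of M values (TMM) normalization, and log2 fold changes (log2 FC) are given with their standard error (SE) and the adjusted p of edgeR's quasi-likelihood test over all 20240 genes. Each value is relative to the other RNA of its library, and the amount of RNA per cell is not given by these counts. A higher value can therefore also mean a smaller loss than that of the other RNA. Genes that rose or fell are named below in this relative sense. Less of a transcript per cell and fewer cells that carry it cannot be told apart either.

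Promoter sequences of 7 of the 10 genes (all but EGR3, IER3 and KLF10) were matched by symbol in RefSeq (GRCh38.p14), with 3 start sites for EGR2. They were searched on both strands, from 250 bases before to 50 bases after the start, for the CArG box that SRF binds. EGR1 held 2 CArG boxes, which begin 105 and 83 bases before its start, and EGR2 held 1 at the most downstream of its starts, 71 bases before it. None of the other 5 genes held a match, and 1.29% of all 35116 promoters did. The 2 stretches with CArG boxes, of EGR1 and EGR2, are shown. Which start of EGR2 these cells use is not given by the counts. A part of the boxes in the response was not tested. The 250 bases before each start are printed 5′ to 3′ with the CArG boxes in capitals, for EGR1 from chr5:138465229-138465478 (plus strand) and for EGR2 from chr10:62816367-62816616 (minus strand).
EGR1: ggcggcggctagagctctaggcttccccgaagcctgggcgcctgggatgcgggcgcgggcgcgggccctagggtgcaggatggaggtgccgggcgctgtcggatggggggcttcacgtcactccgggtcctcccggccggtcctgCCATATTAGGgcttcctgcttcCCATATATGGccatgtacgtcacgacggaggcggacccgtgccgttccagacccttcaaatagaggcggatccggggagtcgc
EGR2: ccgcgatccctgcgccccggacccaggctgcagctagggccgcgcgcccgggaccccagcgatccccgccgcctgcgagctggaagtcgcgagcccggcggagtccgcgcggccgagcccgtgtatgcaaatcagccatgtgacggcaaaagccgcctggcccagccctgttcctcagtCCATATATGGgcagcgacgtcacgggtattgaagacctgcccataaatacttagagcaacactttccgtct

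The binding site of the EGR factors themselves, searched as GCGGGGGCG or GCGTGGGCG on both strands, was found in KLF6 and KLF2 and in 5.77% of all promoters. The match in KLF6 begins 65 bases before the start and overlaps a GC box (GGGCGG), a motif found in 45% of all promoters. The KLF6 stretch, chr10:3785210-3785459 on the minus strand, is shown with that match in capitals. KLF6 stood lower in treated cells of both lines at both times. KLF2, which held a match too, stood higher in treated cells at 12 h (log2 FC 1.80 in A2780 and 0.69 in A2780cis). A part of these matches in the response was not tested.
KLF6: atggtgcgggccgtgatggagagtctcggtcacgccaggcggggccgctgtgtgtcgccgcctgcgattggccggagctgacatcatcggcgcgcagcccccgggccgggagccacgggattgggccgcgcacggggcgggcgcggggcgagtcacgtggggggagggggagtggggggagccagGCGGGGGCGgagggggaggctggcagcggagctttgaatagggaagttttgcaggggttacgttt
The full cyclic AMP response element TGACGTCA was found in none of the 7 genes and in 1.85% of all promoters. Its short form CGTCA was found in EGR1, EGR2, IER2 and KLF4 and in 24.6% of all promoters. The ETS core CCGGAA was found in IER2 and IER5 and in 17.2%. These matches describe the letters of the windows alone.

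Most of the 9 tested genes stood higher, relative to other RNA, in treated cells of both lines. KLF6 stood lower in each comparison, and the median log2 FC was larger at 12 h than at 6 h. At 6 h, 6 genes rose and 1 fell in A2780, where 16.0% of all tested genes rose and 13.4% fell, and 6 rose and 1 fell in A2780cis, where 14.4% of all genes rose and 16.3% fell. At 12 h, 8 rose and 1 fell in A2780 beside 28.6% and 26.1% of all genes. In A2780cis, 7 rose and 2 fell at 12 h beside 31.0% and 28.9% of all genes. The median log2 FC of the 9 genes was 0.92 in A2780 and 0.65 in A2780cis at 6 h, and 1.80 and 1.03 at 12 h, whereas the medians of all genes lay between 0.00 and 0.04. Changes of all genes were larger at 12 h as well. Taken without its sign, their log2 FC had a median of 0.32 in both lines at 6 h. At 12 h that median was 0.48 in A2780 and 0.56 in A2780cis. Each of these 4 comparisons had its own treated and untreated libraries, which the comparisons of lines and times described later use again.

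The summed level of the 10 genes was 119.5 ± 7.32 CPM (SD, n = 3, as for all groups) in untreated and 185 ± 7.02 CPM in treated A2780 at 6 h, and 133 ± 8.17 and 330.2 ± 15 CPM at 12 h. In A2780cis it was 247 ± 27.5 and 418 ± 22.2 CPM at 6 h and 188 ± 12.6 and 408 ± 21.9 CPM at 12 h. Treated libraries lay above the untreated ones in each pair of groups. Scaled on 82 ribosomal protein genes instead of TMM, the called genes at 6 h were EGR1 and IER5 in A2780 and EGR1, EGR3, IER2 and IER5 in A2780cis, and at 12 h all but KLF6 in A2780 and all but KLF2 in A2780cis. No called difference of the 9 genes changed its direction under any alternative tried. Scaling moves the balance of all genes too. Of all calls in A2780 at 12 h, 52.3% were higher in treated cells, and 70.7% were when libraries were scaled by size alone and 67.7% on ribosomal protein genes, whose scaling shifted the median of all genes from 0.02 to 0.17. In A2780cis the share at 12 h was 51.7% and became 58.8% and 23.7%, with the median of all genes at -0.37 on ribosomal protein genes, and at 6 h it was 47.0% and became 61.4% and 35.2%.

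**Figure D1:**
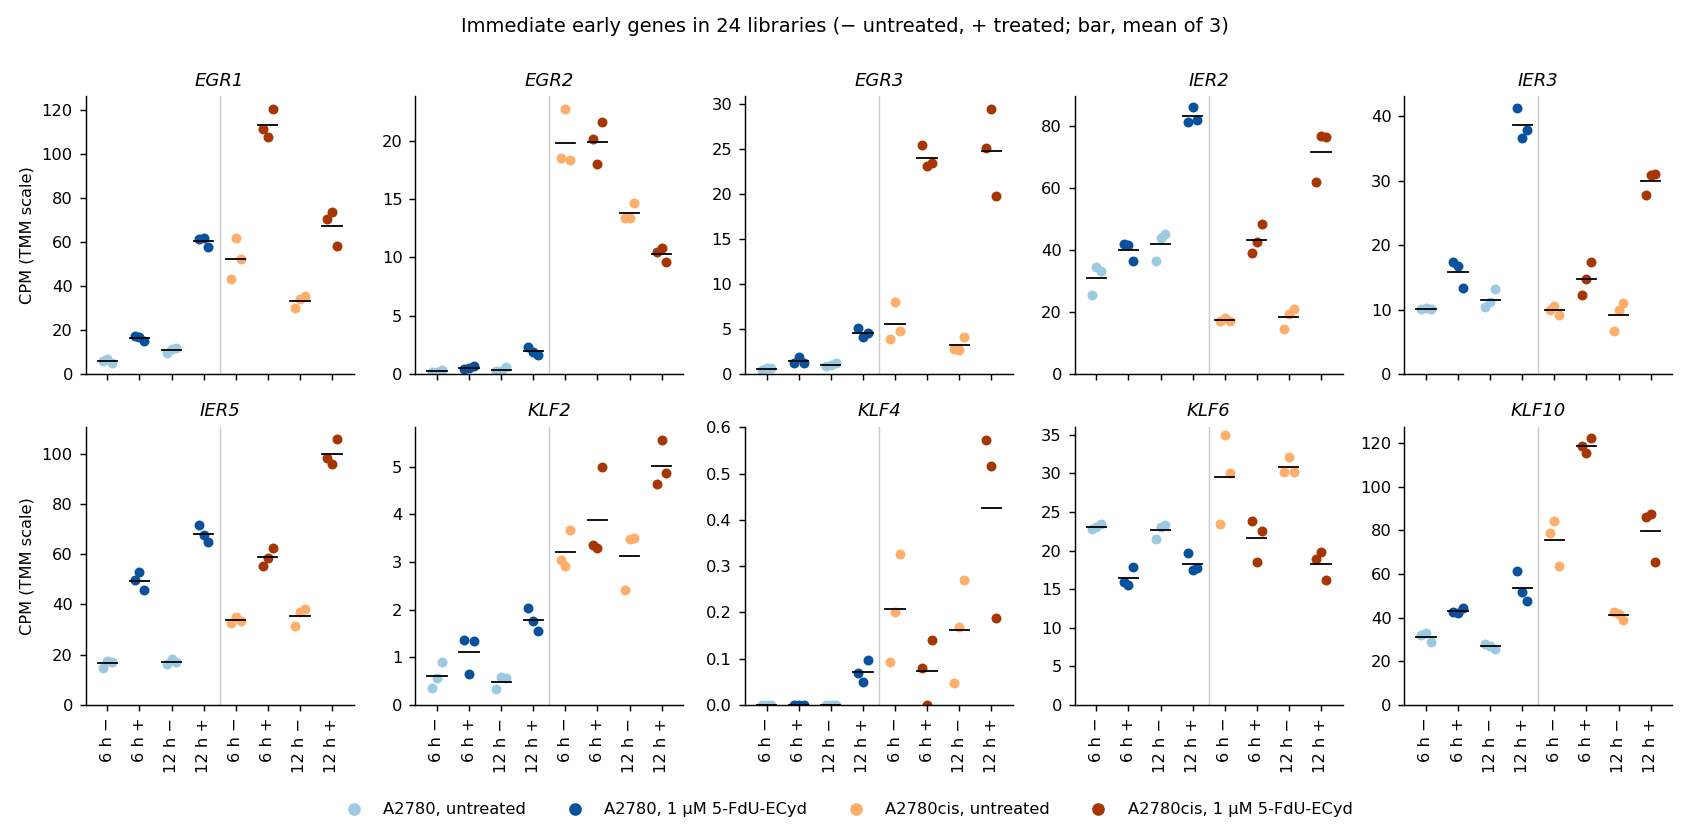
CPM of each gene (y axis, from 0, on a scale of its own) in the 24 libraries, with points for libraries and bars for the mean of 3, in the order 6 h untreated (−), 6 h treated (+), 12 h untreated and 12 h treated, A2780 left of the grey line and A2780cis right of it. EGR1, EGR2, EGR3 and KLF2 stood higher in untreated A2780cis than in untreated A2780, and KLF6 stood lower with treatment.

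Among the EGR factors, EGR1 and EGR3 rose in both lines at both times, while EGR2 rose in A2780 at 12 h and fell in A2780cis at 12 h. EGR1, the family member with the highest level, stood at 5.89, 6.72 and 5.27 CPM in untreated A2780 at 6 h and at 17.5, 17 and 15.2 CPM with treatment. At 12 h the untreated A2780 libraries held 9.37, 11.2 and 11.9 CPM and the treated ones 61.4, 61.7 and 57.9 CPM. The groups did not overlap at either time. The change was 2.78-fold at 6 h (log2 FC 1.47 ± 0.15, adjusted p = 5.07e-08) and 5.55-fold at 12 h (log2 FC 2.47 ± 0.13, adjusted p = 2.93e-14).

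In A2780cis, EGR1 stood at 43.2, 62.0 and 52.1 CPM in untreated cells at 6 h and at 111, 108 and 120.4 CPM in treated cells. At 12 h it stood at 29.9, 33.9 and 35.3 CPM untreated and 70.5, 73.7 and 58.4 CPM treated. Both groups lay lower at 12 h than at 6 h, and the ratio of treated to untreated cells stayed near the same value, with a log2 FC of 1.11 ± 0.12 (adjusted p = 8.96e-08) at 6 h and of 1.03 ± 0.12 (adjusted p = 3.65e-08) at 12 h. The treated A2780 libraries of 12 h lay within the range of untreated A2780cis at 6 h.

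EGR2 was nearly silent in A2780, with 3, 2 and 4 counts in the untreated libraries at 6 h and 5, 6 and 9 in the treated ones. The log2 FC of 1.10 ± 0.44 (adjusted p = 0.111) did not pass the test at this depth, although the libraries did not overlap. At 12 h, 4, 5 and 12 counts in untreated A2780 compared with 33, 39 and 34 counts in treated A2780, a log2 FC of 2.24 ± 0.26 (adjusted p = 7.64e-08). In A2780cis the gene was plainly expressed. Its level was 18.5, 22.7 and 18.3 CPM untreated and 20.2, 18.0 and 21.6 CPM treated at 6 h, where the groups overlapped (log2 FC 0.01 ± 0.13, adjusted p = 0.976). At 12 h all treated libraries, at 10.5, 10.8 and 9.60 CPM, lay under the untreated ones, at 13.4, 13.4 and 14.7 CPM. The log2 FC was -0.42 ± 0.13 (adjusted p = 0.00813), and it was -0.31 (adjusted p = 0.0592) when libraries were scaled by their size alone. EGR2 shares 145 exonic bases with a lncRNA gene of the same strand, so reads there cannot be assigned to either.

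EGR3 was the gene of the family with the largest response in A2780cis. It stood at 3.88, 8.02 and 4.74 CPM in untreated A2780cis at 6 h and at 25.4, 23.1 and 23.4 CPM with treatment, a 4.35-fold increase (log2 FC 2.12 ± 0.20, adjusted p = 1.06e-08). At 12 h the untreated libraries held 2.84, 2.64 and 4.16 CPM and the treated ones 25.1, 29.4 and 19.8 CPM, a 7.70-fold increase (log2 FC 2.94 ± 0.20, adjusted p = 3.00e-12). The treated level was thus about the same at both times, and the untreated level was lower at 12 h. In A2780 the counts were small. The untreated libraries at 6 h had 7, 7 and 7 counts and the treated ones 15, 20 and 16, with a log2 FC of 1.25 ± 0.40 (adjusted p = 0.0202). This call was lost without untreated replicate 1 (adjusted p = 0.0955) and without treated replicate 2 (adjusted p = 0.0915). At 12 h, 14, 17 and 25 counts compared with 73, 85 and 94, a log2 FC of 2.08 ± 0.26 (adjusted p = 1.71e-07). In the same release, EGR3 shares 164 exonic bases with a lncRNA gene on the other strand. The strand setting of the counting is not given in the sources used here, so reads of the pair may not be told apart.

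From the highest to the lowest mean CPM, EGR1 ran through treated A2780cis at 6 h (113 ± 6.53), treated A2780cis at 12 h (67.5 ± 8.05), treated A2780 at 12 h (60.3 ± 2.09), untreated A2780cis at 6 h (52.4 ± 9.41), untreated A2780cis at 12 h (33.0 ± 2.80), treated A2780 at 6 h (16.6 ± 1.22), untreated A2780 at 12 h (10.8 ± 1.30) and untreated A2780 at 6 h (5.96 ± 0.725). Neighbours overlapped in the range of their libraries from the second to the fourth group and nowhere else in this order. The order of EGR2 by mean CPM was treated A2780cis at 6 h (19.9 ± 1.82), untreated A2780cis at 6 h (19.8 ± 2.46), untreated A2780cis at 12 h (13.8 ± 0.755), treated A2780cis at 12 h (10.3 ± 0.619), treated A2780 at 12 h (1.96 ± 0.333), treated A2780 at 6 h (0.549 ± 0.120), untreated A2780 at 12 h (0.390 ± 0.197) and untreated A2780 at 6 h (0.256 ± 0.0941). The groups of A2780cis stood above all of A2780. The highest pair overlapped, as did the lowest 3 groups. For EGR3, the groups came in the order treated A2780cis at 12 h (24.7 ± 4.83), treated A2780cis at 6 h (24 ± 1.27), untreated A2780cis at 6 h (5.55 ± 2.18), treated A2780 at 12 h (4.61 ± 0.482), untreated A2780cis at 12 h (3.21 ± 0.824), treated A2780 at 6 h (1.44 ± 0.360), untreated A2780 at 12 h (1.06 ± 0.193) and untreated A2780 at 6 h (0.60 ± 0.0858). Neighbours did not overlap between the second and the third, the fifth and sixth, and the seventh and eighth groups, and overlapped elsewhere.

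The IER genes rose in both lines at both times, with changes that were larger at 12 h. IER2 encodes a nuclear protein that is induced by growth factors. It stood at 25.3, 34.5 and 33.1 CPM in untreated A2780 at 6 h and at 42.0, 41.6 and 36.3 CPM with treatment. The groups were close (log2 FC 0.37 ± 0.13, adjusted p = 0.0355), and the call was lost with the size factors of DESeq2 (adjusted p = 0.0600), by its Wald test (adjusted p = 0.0517) and without untreated replicate 1 (log2 FC 0.24, adjusted p = 0.243), treated replicate 1 (adjusted p = 0.121) or treated replicate 2 (adjusted p = 0.105). At 12 h the level rose from 36.6, 44 and 45.0 CPM to 81.2, 85.9 and 81.9 CPM, a 1.98-fold increase (log2 FC 0.99 ± 0.13, adjusted p = 2.93e-07).

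Untreated A2780cis had less IER2 than untreated A2780, and its response was larger. At 6 h, 17, 18.1 and 17.3 CPM in untreated A2780cis compared with 39.1, 42.6 and 48.2 CPM in treated cells, a 2.48-fold increase (log2 FC 1.31 ± 0.14, adjusted p = 7.22e-08). At 12 h, 14.7, 19.4 and 20.8 CPM compared with 62.0, 76.7 and 76.2 CPM, a 3.92-fold increase (log2 FC 1.97 ± 0.13, adjusted p = 3.00e-12). The treated levels of the lines at 12 h were 83.0 ± 2.53 CPM in A2780 and 71.6 ± 8.37 CPM in A2780cis, without overlap. IER2 shares 946 and 662 exonic bases with lncRNA genes on the other strand, whose reads likewise may not be told apart from its own.

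IER3 responded to nearly the same degree in both lines. Its level was 10.1, 10.2 and 10.1 CPM in untreated and 17.3, 16.8 and 13.4 CPM in treated A2780 at 6 h, with a log2 FC of 0.64 ± 0.16 (adjusted p = 0.00346). At 12 h it was 10.4, 11.1 and 13.2 CPM and 41.3, 36.6 and 37.8 CPM, a 3.33-fold increase (log2 FC 1.73 ± 0.14, adjusted p = 2.18e-10). In A2780cis the untreated libraries held 9.89, 10.6 and 9.16 CPM and the treated ones 12.2, 14.8 and 17.4 CPM at 6 h. That difference (log2 FC 0.60 ± 0.16, adjusted p = 0.00521) lost its call without treated replicate 3 (log2 FC 0.45, adjusted p = 0.0602). At 12 h, 6.69, 9.99 and 11 CPM compared with 27.8, 30.9 and 31.0 CPM, a 3.25-fold increase (log2 FC 1.70 ± 0.15, adjusted p = 3.05e-10). Antisense genes overlap 85 (HCG20) and 440 (IER3-AS1) exonic bases of IER3.

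IER5, a gene that is known to respond to ionizing radiation, had an SE of 0.09 or 0.10 in each of the 4 comparisons. It stood at 14.8, 17.6 and 17.2 CPM in untreated A2780 and 49.6, 52.8 and 45.8 CPM in treated A2780 at 6 h, a 3.00-fold increase (log2 FC 1.58 ± 0.10, adjusted p = 3.03e-11). At 12 h the untreated level had barely moved, with 16.3, 18.3 and 17.2 CPM, and the treated libraries held 71.5, 67.4 and 65.0 CPM (log2 FC 1.98 ± 0.10, adjusted p = 1.34e-14). Untreated A2780cis started from a higher level, 32.4, 35.2 and 33.5 CPM at 6 h and 31.3, 36.8 and 38.4 CPM at 12 h. Its treated libraries held 55.2, 58.6 and 62.5 CPM at 6 h (log2 FC 0.80 ± 0.10, adjusted p = 6.14e-07) and 98.2, 95.8 and 106 CPM at 12 h (log2 FC 1.5 ± 0.09, adjusted p = 9.83e-13). The treated and untreated groups of each pair lay far apart.

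From the highest to the lowest mean CPM, IER2 ran through treated A2780 at 12 h (83.0 ± 2.53), treated A2780cis at 12 h (71.6 ± 8.37), treated A2780cis at 6 h (43.3 ± 4.63), untreated A2780 at 12 h (41.9 ± 4.61), treated A2780 at 6 h (40.0 ± 3.18), untreated A2780 at 6 h (31.0 ± 4.95), untreated A2780cis at 12 h (18.3 ± 3.22) and untreated A2780cis at 6 h (17.5 ± 0.60). The overlapping neighbours were the third to the fifth groups, and the seventh and eighth. The order of IER3 by mean CPM was treated A2780 at 12 h (38.6 ± 2.48), treated A2780cis at 12 h (29.9 ± 1.82), treated A2780 at 6 h (15.8 ± 2.11), treated A2780cis at 6 h (14.8 ± 2.62), untreated A2780 at 12 h (11.5 ± 1.44), untreated A2780 at 6 h (10.1 ± 0.0656), untreated A2780cis at 6 h (9.89 ± 0.735) and untreated A2780cis at 12 h (9.23 ± 2.26). The treated groups of 12 h stood apart from each other and from all others. The third to the fifth groups overlapped with their neighbours, as did the sixth to the eighth. For IER5, the groups came in the order treated A2780cis at 12 h (100.0 ± 5.30), treated A2780 at 12 h (68.0 ± 3.30), treated A2780cis at 6 h (58.8 ± 3.64), treated A2780 at 6 h (49.4 ± 3.5), untreated A2780cis at 12 h (35.5 ± 3.75), untreated A2780cis at 6 h (33.7 ± 1.39), untreated A2780 at 12 h (17.3 ± 1.00) and untreated A2780 at 6 h (16.5 ± 1.52). The order set all treated groups above all untreated ones, and overlap occurred between the fifth and sixth groups and between the seventh and eighth, which are the untreated groups of one line at different times.

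The KLF genes did not move together. KLF10 rose at both times and KLF2 at 12 h, KLF6 fell and KLF4 was hardly detected. KLF10 had the highest level of the 4. In A2780 it stood at 32.0, 33.1 and 28.9 CPM untreated and 42.8, 42.2 and 44.7 CPM treated at 6 h (log2 FC 0.46 ± 0.12, adjusted p = 0.00397). At 12 h it stood at 27.9, 27.1 and 25.6 CPM untreated and 61.2, 51.7 and 47.8 CPM treated (log2 FC 0.99 ± 0.11, adjusted p = 5.44e-08). In A2780cis, 78.8, 84.4 and 63.8 CPM untreated compared with 119, 115 and 123 CPM treated at 6 h (log2 FC 0.65 ± 0.11, adjusted p = 6.27e-05). By 12 h both groups were lower, at 42.6, 41.7 and 39.1 CPM and 86.4, 87.7 and 65.5 CPM, and the log2 FC was 0.96 ± 0.11 (adjusted p = 4.91e-08). Treated and untreated libraries did not overlap in any of these pairs.

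KLF2 is known as a factor of quiescent cells. It was low in A2780, with 5, 6 and 10 counts untreated and 16, 7 and 18 counts treated at 6 h, where the groups overlapped. The log2 FC of 0.92 ± 0.38 (adjusted p = 0.0687) did not pass the test, and passed it without untreated replicate 3 (adjusted p = 0.0263) or treated replicate 2 (adjusted p = 0.0281). At 12 h, 5, 10 and 11 counts compared with 29, 36 and 32 counts, a log2 FC of 1.80 ± 0.31 (adjusted p = 2.53e-05). In A2780cis, 3.05, 2.91 and 3.68 CPM and 3.35, 3.29 and 4.99 CPM at 6 h overlapped (log2 FC 0.29 ± 0.23, adjusted p = 0.358). At 12 h, 2.41, 3.48 and 3.51 CPM untreated compared with 4.64, 5.57 and 4.86 CPM treated, a log2 FC of 0.69 ± 0.21 (adjusted p = 0.00567) that became 0.52 (adjusted p = 0.0512) without untreated replicate 1. Scaled on ribosomal protein genes it was 0.25 (adjusted p = 0.435).

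KLF6, which is known as a candidate tumor suppressor, was the gene that stood lower with treatment throughout. At 6 h it fell from 22.8, 23.1 and 23.4 CPM to 15.9, 15.5 and 17.9 CPM in A2780 (log2 FC -0.48 ± 0.13, adjusted p = 0.00542). In A2780cis at 6 h, 23.4, 35 and 30.1 CPM untreated and 23.8, 18.5 and 22.5 CPM treated overlapped in 1 library of each group. The log2 FC was -0.45 ± 0.12 (adjusted p = 0.00686), and the call was lost without untreated replicate 2 (adjusted p = 0.0748) or treated replicate 2 (adjusted p = 0.0629). The clearest decrease was that of A2780cis at 12 h, from 30.2, 32.2 and 30.2 CPM to 18.9, 19.9 and 16.1 CPM (log2 FC -0.75 ± 0.12, adjusted p = 7.10e-06). The decrease in A2780 at 12 h, from 21.5, 23.0 and 23.3 CPM to 19.7, 17.4 and 17.8 CPM, was weak (log2 FC -0.31 ± 0.12, adjusted p = 0.0338). It was -0.09 (adjusted p = 0.584), when libraries were scaled by size alone, and the call was lost without untreated replicate 2 or 3 or treated replicate 2 or 3 (adjusted p = 0.0781, 0.0826, 0.105 and 0.0858).

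KLF4, a factor of epithelial differentiation and pluripotency, was at 0 counts in the 9 libraries of untreated A2780 and of treated A2780 at 6 h, and 1, 1 and 2 counts in treated A2780 at 12 h. A2780cis had 1, 2 and 4 counts untreated and 1, 0 and 3 treated at 6 h. At 12 h it had 1, 3 and 5 untreated and 9, 9 and 3 treated. A count of 0 allows up to 3 counts in a library, and KLF4, which did not reach the minimum count, was not tested. It shares 357 exonic bases with an antisense lncRNA gene.

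From the highest to the lowest mean CPM, KLF10 ran through treated A2780cis at 6 h (119 ± 3.57), treated A2780cis at 12 h (79.9 ± 12.5), untreated A2780cis at 6 h (75.7 ± 10.7), treated A2780 at 12 h (53.6 ± 6.91), treated A2780 at 6 h (43.2 ± 1.28), untreated A2780cis at 12 h (41.1 ± 1.78), untreated A2780 at 6 h (31.4 ± 2.18) and untreated A2780 at 12 h (26.9 ± 1.15). The second and the third groups overlapped, as did the fifth and sixth. The order of KLF2 by mean CPM was treated A2780cis at 12 h (5.02 ± 0.487), treated A2780cis at 6 h (3.88 ± 0.969), untreated A2780cis at 6 h (3.21 ± 0.411), untreated A2780cis at 12 h (3.13 ± 0.628), treated A2780 at 12 h (1.78 ± 0.239), treated A2780 at 6 h (1.12 ± 0.405), untreated A2780 at 6 h (0.612 ± 0.278) and untreated A2780 at 12 h (0.491 ± 0.140). The A2780cis groups overlapped with their neighbours among themselves, and so did the lowest 3 groups. For KLF6, the groups came in the order untreated A2780cis at 12 h (30.9 ± 1.13), untreated A2780cis at 6 h (29.5 ± 5.83), untreated A2780 at 6 h (23.1 ± 0.271), untreated A2780 at 12 h (22.6 ± 0.956), treated A2780cis at 6 h (21.6 ± 2.79), treated A2780cis at 12 h (18.3 ± 1.94), treated A2780 at 12 h (18.3 ± 1.21) and treated A2780 at 6 h (16.5 ± 1.27). The untreated A2780cis groups overlapped with each other, and each group from the third on overlapped with the next.

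**Figure D2:**
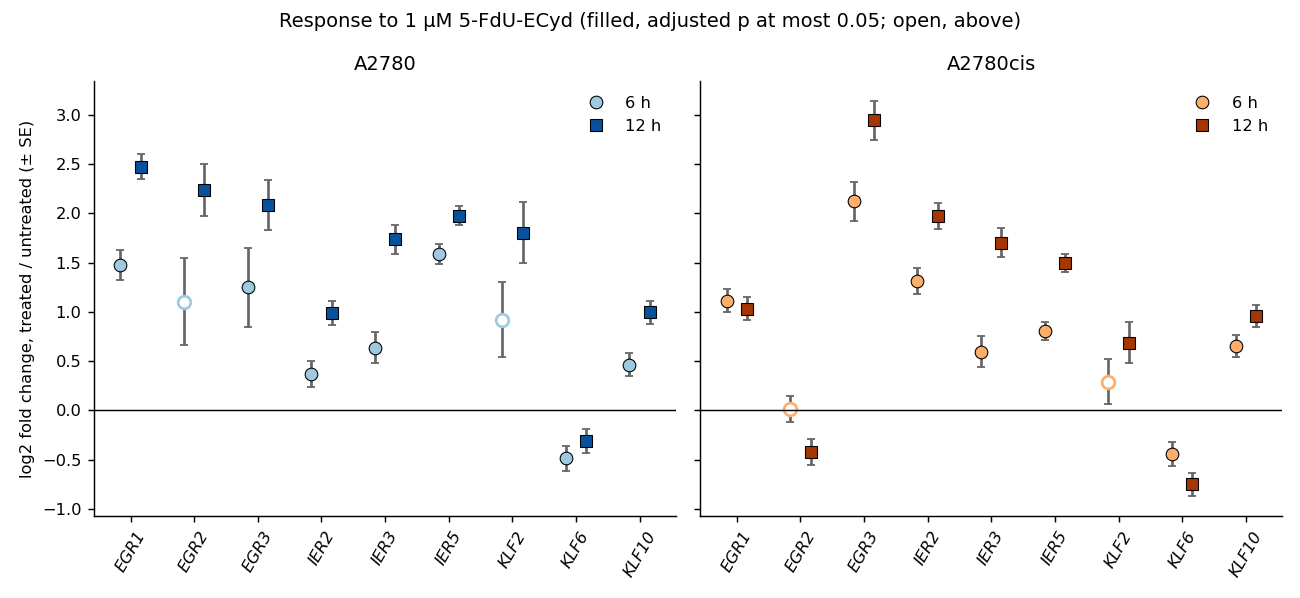
Log2 FC of treated against untreated cells with its SE (y axis) for the 9 tested genes in A2780 (left) and A2780cis (right), with circles for 6 h and squares for 12 h and filled symbols for an adjusted p of at most 0.05. EGR2 and KLF2 at 6 h are open in both lines, KLF6 lies under 0 throughout, and EGR2 in A2780cis lies under 0 at 12 h.

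The response differed between the lines for 2 of the 9 genes at 6 h and for 5 at 12 h, by the test of the difference itself (A2780cis minus A2780), while 3.07% of all genes differed at 6 h and 23.7% at 12 h. At 6 h the increase of IER2 was larger in A2780cis (difference in log2 FC 0.94 ± 0.19, adjusted p = 0.00486) and that of IER5 was smaller (difference -0.78 ± 0.14, adjusted p = 0.00185). Both differences were still found at 12 h, for IER2 with 0.98 ± 0.18 (adjusted p = 3.49e-04) and for IER5 with -0.48 ± 0.13 (adjusted p = 0.0106). The other genes that differed responded less in A2780cis. The difference was -1.44 ± 0.17 (adjusted p = 1.69e-06) for EGR1 and -2.66 ± 0.29 (adjusted p = 5.70e-07) for EGR2, which moved in opposite directions in the lines. For KLF2 it was -1.12 ± 0.38 (adjusted p = 0.0343), a call that was lost in 8 of 12 fits with a library left out, namely without replicate 1 or 3 of untreated A2780, replicate 1 or 2 of treated A2780, replicate 2 or 3 of untreated A2780cis, or replicate 1 or 3 of treated A2780cis (adjusted p from 0.0512 to 0.107).

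Of the genes whose difference between lines did not pass the test at 12 h, IER3 and KLF10 were near 0, with differences of -0.03 ± 0.21 (adjusted p = 0.943) and -0.04 ± 0.16 (adjusted p = 0.913). EGR3 leaned towards a larger response in A2780cis (0.86 ± 0.34, adjusted p = 0.0676). Its call appeared without replicate 3 of untreated A2780cis (1.08, adjusted p = 0.0273) or replicate 3 of treated A2780cis (0.99, adjusted p = 0.0402), in a fit of the compared groups alone (0.92, adjusted p = 0.0450) and with no filter (0.84, adjusted p = 0.0486). KLF6 leaned towards a larger decrease in A2780cis (-0.44 ± 0.17, adjusted p = 0.0597), and passed the test without replicate 2 of treated A2780cis (-0.51, adjusted p = 0.0404) and with libraries scaled by size alone (-0.55, adjusted p = 0.0252) or on ribosomal protein genes (-1.02, adjusted p = 0.00825). It also passed it with lncRNA and rRNA genes left out (-0.45, adjusted p = 0.0473) and by the Wald test of DESeq2 (-0.46, adjusted p = 0.0415). Scaled on ribosomal protein genes, the differences of IER2 and IER5 at 6 h lost their calls (adjusted p = 0.237 and 0.0799), and the IER2 difference at 12 h was 0.39 (adjusted p = 0.257).

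**Figure D3:**
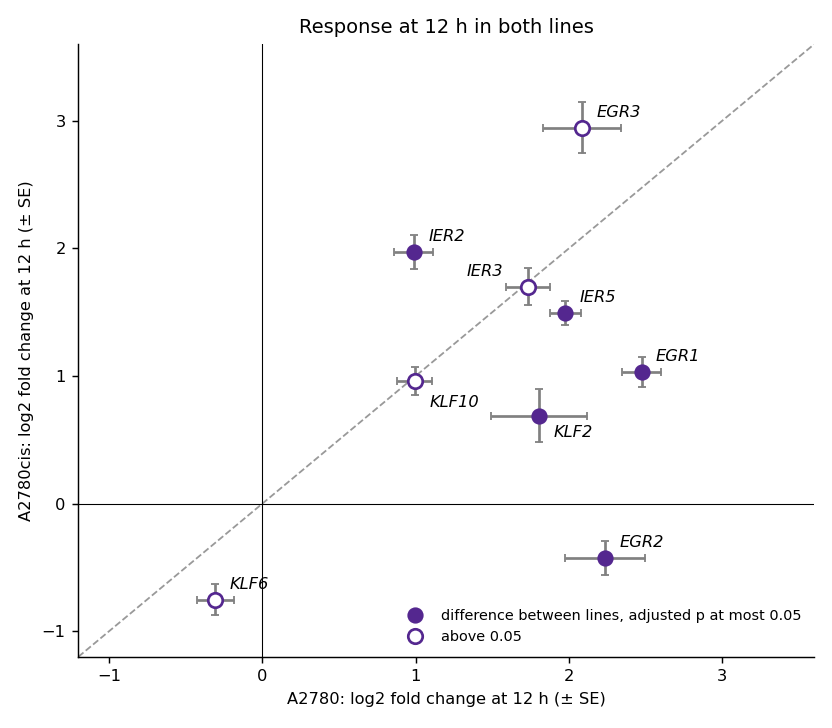
Log2 FC at 12 h in A2780 (x axis) and A2780cis (y axis) with SE bars for the 9 tested genes, a dashed line of equal response, and filled points where the difference between the lines had an adjusted p of at most 0.05. EGR1, EGR2, IER5 and KLF2 are filled below the line, IER2 is filled above it, and IER3 and KLF10 lie on it.

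From 6 h to 12 h the treatment effect grew for 5 genes in A2780, where 10.7% of all genes had a larger log2 FC at 12 h by the interaction test, and for 4 in A2780cis, where 10.3% had. IER3 gained 1.10 ± 0.21 (adjusted p = 6.65e-04) in A2780 and 1.10 ± 0.21 (adjusted p = 6.37e-04) in A2780cis. IER2 gained 0.62 ± 0.18 (adjusted p = 0.0152) in A2780 and 0.66 ± 0.19 (adjusted p = 0.0122) in A2780cis, the latter with an adjusted p of 0.0552 without treated replicate 3 of 12 h. EGR1 gained 1.00 ± 0.20 (adjusted p = 7.23e-04) in A2780, while its difference of -0.08 ± 0.16 (adjusted p = 0.777) in A2780cis did not pass the test.

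IER5 gained 0.69 ± 0.13 (adjusted p = 5.83e-04) in A2780cis and 0.39 ± 0.14 (adjusted p = 0.0425) in A2780. The gain in A2780 lost its call in 8 of 12 fits with a library left out, those without untreated replicate 2 or 3 or treated replicate 1 or 3 of 6 h, or untreated replicate 1 or 3 or treated replicate 1 or 2 of 12 h (adjusted p from 0.0582 to 0.109), and with no filter (0.36, adjusted p = 0.222). KLF10 gained 0.53 ± 0.16 (adjusted p = 0.0195) in A2780, a call lost without untreated replicate 3 of 12 h (0.49, adjusted p = 0.0528) or treated replicate 1 of 12 h (0.43, adjusted p = 0.0655). EGR3 gained 0.82 ± 0.28 (adjusted p = 0.0327) in A2780cis. That call was lost in 7 of 12 such fits, without untreated replicate 2 or treated replicate 2 or 3 of 6 h, or untreated or treated replicate 1 or 2 of 12 h, with the lowest value 0.47 (adjusted p = 0.204) without untreated replicate 2 of 6 h, and it was lost in a fit of the compared groups alone (0.81, adjusted p = 0.0810). EGR2 in A2780cis had -0.43 ± 0.19 (adjusted p = 0.0935), which became -0.55 (adjusted p = 0.0433) without the same library. Scaled on ribosomal protein genes, 2 of the gains in A2780, those of EGR1 and IER3, passed the test, and the 4 in A2780cis did not.

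Untreated cells themselves moved between 6 h and 12 h after the change of medium. In A2780, 2 of the 9 genes differed, as did 26.9% of all genes. EGR1 was higher at 12 h (log2 FC 0.87 ± 0.15, adjusted p = 6.56e-04), and so was IER2 (log2 FC 0.44 ± 0.13, adjusted p = 0.0155), whose call was lost without untreated replicate 1 of 6 h (adjusted p = 0.134), replicate 2 of 12 h (adjusted p = 0.0554) or replicate 3 of 12 h (adjusted p = 0.0810). EGR3 had 0.85 ± 0.40 (adjusted p = 0.110), which became 0.86 (adjusted p = 0.04998) in a fit of the compared groups alone. In A2780cis, 4 genes differed, as did 39.9% of all genes, and each of the 4 was lower at 12 h. KLF10 had a log2 FC of -0.88 ± 0.11 (adjusted p = 2.07e-05) and EGR1 had a log2 FC of -0.67 ± 0.12 (adjusted p = 1.77e-04). EGR2 had -0.52 ± 0.13 (adjusted p = 0.00337) and EGR3 -0.78 ± 0.22 (adjusted p = 0.00761), where the untreated groups of EGR3 overlapped and the call was lost without replicate 2 of 6 h (-0.43, adjusted p = 0.134). With libraries scaled by size alone, EGR2 and EGR3 lost the call (adjusted p = 0.0616 and 0.0543). Scaled on ribosomal protein genes, EGR1, EGR2 and EGR3 lost it (adjusted p = 0.184, 0.472 and 0.268).

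Without 5-FdU-ECyd, A2780cis and A2780 differed in most of these genes. In untreated cells 7 of the 9 tested genes were higher in A2780cis than in A2780 at 6 h, beside 25.0% of all genes, and 7 at 12 h, beside 25.4%. The EGR factors had the largest differences among the 9 genes at 6 h. EGR2 was 75.6-fold higher at 6 h, where it rests on 2 to 4 counts per library in A2780 (log2 FC 6.24 ± 0.24, adjusted p = 1.16e-17), and 33.6-fold higher at 12 h (log2 FC 5.07 ± 0.21, adjusted p = 3.02e-17). EGR1 was 8.79-fold and 3.04-fold higher, and EGR3 9.17-fold and 2.97-fold higher, with adjusted p of 3.41e-16, 3.27e-11, 3.69e-09 and 1.67e-05. KLF2 followed with 5.37-fold and 6.16-fold. No library of untreated A2780 reached the level of any untreated A2780cis library for these 4 genes.

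IER5 was 2.04-fold and 2.05-fold higher in untreated A2780cis, and KLF10 was 2.41-fold higher at 6 h and 1.53-fold at 12 h. Scaled on ribosomal protein genes, KLF6 at both times and KLF10 at 12 h lost their calls (adjusted p = 0.824, 0.475 and 0.153). KLF6 was higher with a log2 FC of 0.35 ± 0.12 (adjusted p = 0.0204) at 6 h and 0.45 ± 0.12 (adjusted p = 0.00246) at 12 h. The call at 6 h was lost with libraries scaled by size alone (0.25, adjusted p = 0.119) and without replicate 1 of untreated A2780 (adjusted p = 0.0532) or replicate 2 or 3 of untreated A2780cis (adjusted p = 0.178 and 0.0551). It was also lost in a fit of the compared groups alone (adjusted p = 0.170), with lncRNA and rRNA genes left out (adjusted p = 0.0918) and with no filter (adjusted p = 0.0569). IER2 was the gene that was lower in A2780cis, with a log2 FC of -0.82 ± 0.14 (adjusted p = 1.75e-05) at 6 h and -1.2 ± 0.13 (adjusted p = 1.60e-08) at 12 h. IER3 had -0.04 ± 0.17 (adjusted p = 0.872) at 6 h and -0.33 ± 0.15 (adjusted p = 0.0692) at 12 h, and its difference at 12 h passed the test without replicate 3 of untreated A2780cis (-0.48, adjusted p = 0.0186) and with scaling on ribosomal protein genes (-0.58, adjusted p = 0.0362).

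Levels of different genes were compared per kilobase of exons. In untreated A2780 at 6 h, IER2 stood first with 10.1 ± 1.61 CPM per kb, then KLF10 with 8.20 ± 0.570 and IER3 with 7.51 ± 0.0486. EGR1 came later with 1.90 ± 0.231, and EGR3 and EGR2 followed far behind with 0.119 ± 0.0170 and 0.0691 ± 0.0254 CPM per kb. In untreated A2780cis at 6 h the order was another one. KLF10 led with 19.8 ± 2.79 CPM per kb, followed by EGR1 with 16.7 ± 3.00, whose libraries overlapped with those of KLF10. IER5, IER3 and IER2 came next with 8.02 ± 0.331, 7.33 ± 0.544 and 5.67 ± 0.195 CPM per kb, and EGR2 with 5.35 ± 0.664 lay close to IER2.

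**Figure D4:**
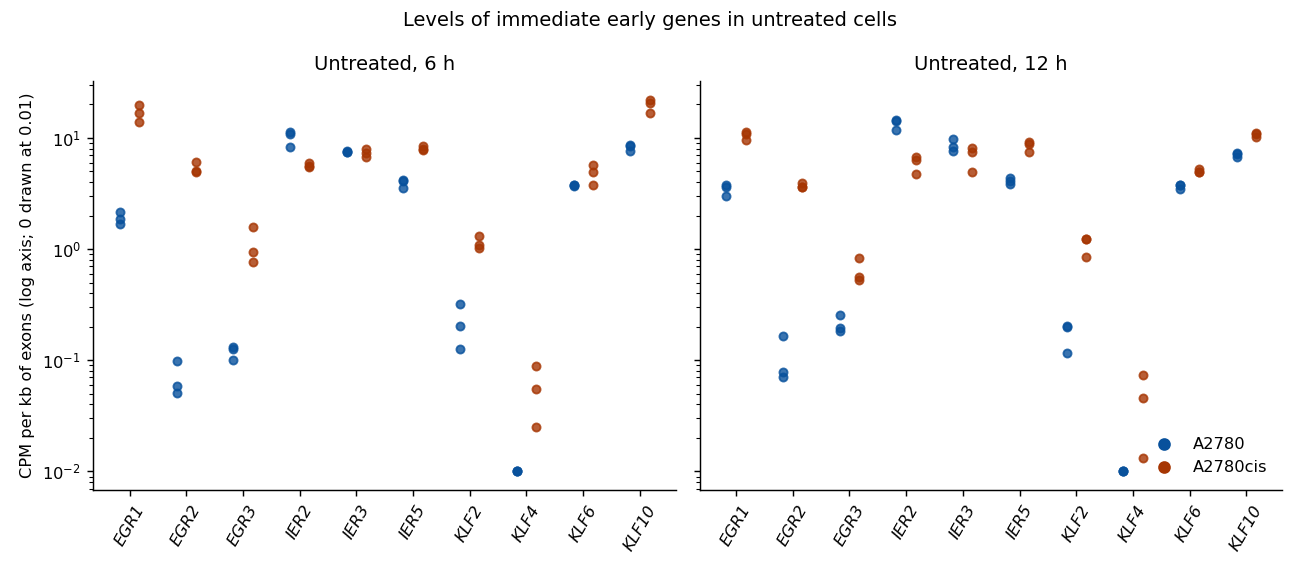
CPM per kb of exons (log axis, with libraries at 0 drawn at 0.01) for the 10 genes in the 3 untreated libraries of A2780 (blue) and A2780cis (brown) at 6 h (left) and 12 h (right). EGR1, EGR2, EGR3 and KLF2 are separated widely between the lines, IER3 overlaps, and IER2 is higher in A2780.

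Most other immediate early genes that changed stood higher in treated cells as well. Of 34 listed outside the AP-1 family, 28 were tested, and 16 rose and 1 fell in A2780 at 6 h, 15 rose and 4 fell in A2780cis at 6 h, 19 rose and 3 fell in A2780 at 12 h, and 20 rose and 3 fell in A2780cis at 12 h, beside the shares of all genes given above. They had a median log2 FC of 1.05 at 12 h in A2780 and of 1.00 in A2780cis. The smallest adjusted p at 12 h in A2780 were those of PLK3, a stress-responsive kinase (log2 FC 3.14 ± 0.15, adjusted p = 5.14e-15), LIF, a cytokine (log2 FC 2.68 ± 0.13, adjusted p = 6.67e-15), and PLK2 (log2 FC 1.71 ± 0.09, adjusted p = 3.68e-14). In A2780cis they were those of LIF (log2 FC 3.28 ± 0.14, adjusted p = 6.74e-16), PLK3 (log2 FC 3.10 ± 0.15, adjusted p = 5.50e-15) and the small MAF factor MAFF (log2 FC 2.67 ± 0.16, adjusted p = 2.97e-13). PLK3 stood at 5.50 ± 0.598 CPM in untreated and 48.4 ± 5.33 CPM in treated A2780 at 12 h, and at 6.09 ± 0.939 and 52.1 ± 6.26 CPM in A2780cis.

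The relatives of the 10 genes within the EGR, IER and KLF families moved in both directions. Of 15 listed, 10 were tested. At 6 h, 2 rose and 1 fell in A2780, beside 16.0% and 13.4% of all genes, and 1 rose and 1 fell in A2780cis, beside 14.4% and 16.3%. At 12 h, 3 rose and 2 fell in A2780 and 5 rose and 5 fell in A2780cis, with median log2 FC of -0.12 and -0.02. Over all genes, 28.6% rose and 26.1% fell at 12 h in A2780 and 31.0% and 28.9% in A2780cis. The counts of both lines at 6 h and of A2780 at 12 h were thus near the shares of all genes. EGR4, the fourth EGR factor, had no count in untreated A2780 and 3 to 13 counts in treated A2780 at 12 h. In A2780cis at 12 h it had 1 to 2 counts untreated and 11 to 19 treated (adjusted p = 8.58e-06). KLF15 and KLF16 fell in A2780 at 12 h, with log2 FC of -1.11 ± 0.21 (adjusted p = 9.72e-05) and -0.74 ± 0.22 (adjusted p = 0.00516). In A2780cis, KLF9 and KLF14 rose at 12 h, with 0.83 ± 0.16 (adjusted p = 9.48e-05) and 1.87 ± 0.37 (adjusted p = 1.06e-04).

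Of 16 genes of the path that leads to SRF and CREB, 4 rose and 3 fell in A2780 at 6 h and 5 rose and 5 fell at 12 h, whereas 2 rose and 7 fell in A2780cis at 6 h and 1 rose and 9 fell at 12 h. In A2780 the shares of all genes were 16.0% and 13.4% at 6 h and 28.6% and 26.1% at 12 h, near the counts at 12 h. In A2780cis the shares of all genes were 14.4% and 16.3% at 6 h and 31.0% and 28.9% at 12 h. Their log2 FC at 12 h had a median of -0.07 in A2780 and -0.57 in A2780cis. EGFR, a receptor at the head of the path, rose in A2780 at 12 h from 7.13 ± 0.961 to 17.2 ± 0.463 CPM (log2 FC 1.26 ± 0.14, adjusted p = 1.96e-08) and fell in A2780cis from 16.9 ± 1.99 to 7.61 ± 1.31 CPM (log2 FC -1.15 ± 0.14, adjusted p = 6.95e-08). The difference between the lines was -2.41 ± 0.19 (adjusted p = 3.08e-09). The kinase gene RPS6KA5 rose in A2780 (log2 FC 1.66 ± 0.20, adjusted p = 1.39e-07). MAP2K1, which encodes the kinase MEK1, fell in both lines (log2 FC -0.72 ± 0.09, adjusted p = 2.36e-07 in A2780 and -0.84 ± 0.09, adjusted p = 1.53e-08 in A2780cis).

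The co-repressors of the EGR factors both rose in A2780 at 6 h and at 12 h, beside 16.0% and 28.6% of all genes. Their log2 FC at 12 h was 0.96 ± 0.10 (adjusted p = 1.22e-08) for NAB1 and 0.39 ± 0.12 (adjusted p = 0.00582) for NAB2. In A2780cis neither passed the test at 6 h, and at 12 h NAB1 rose (0.58 ± 0.11, adjusted p = 1.15e-04) and NAB2 fell (-0.45 ± 0.11, adjusted p = 0.00139), beside 31.0% and 28.9% of all genes. NAB2 stood at 109 ± 7.55 CPM in untreated and 79.3 ± 2.14 CPM in treated A2780cis at 12 h. Of 6 factors that bind AU-rich elements, 1 rose in A2780 at 6 h, 1 rose and 4 fell in A2780cis at 6 h, 2 rose and 3 fell in A2780 at 12 h and 1 rose and 5 fell in A2780cis at 12 h. Over all genes, 16.0% rose in A2780 at 6 h, 14.4% rose and 16.3% fell in A2780cis at 6 h, 28.6% and 26.1% did in A2780 at 12 h, and 31.0% and 28.9% did in A2780cis at 12 h. ZFP36, which brings such transcripts to decay and is itself an immediate early gene, rose at 12 h in A2780 (log2 FC 1.18 ± 0.14, adjusted p = 1.44e-07) and A2780cis (1.36 ± 0.15, adjusted p = 2.25e-08). HNRNPD, another decay factor, and ELAVL1, which stabilises these transcripts, fell in A2780 (log2 FC -0.63 ± 0.11, adjusted p = 1.62e-05 and -0.58 ± 0.12, adjusted p = 2.01e-04) and in A2780cis (-1.04 ± 0.11, adjusted p = 6.76e-09 and -1.39 ± 0.12, adjusted p = 4.89e-10).

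**Figure D5:**
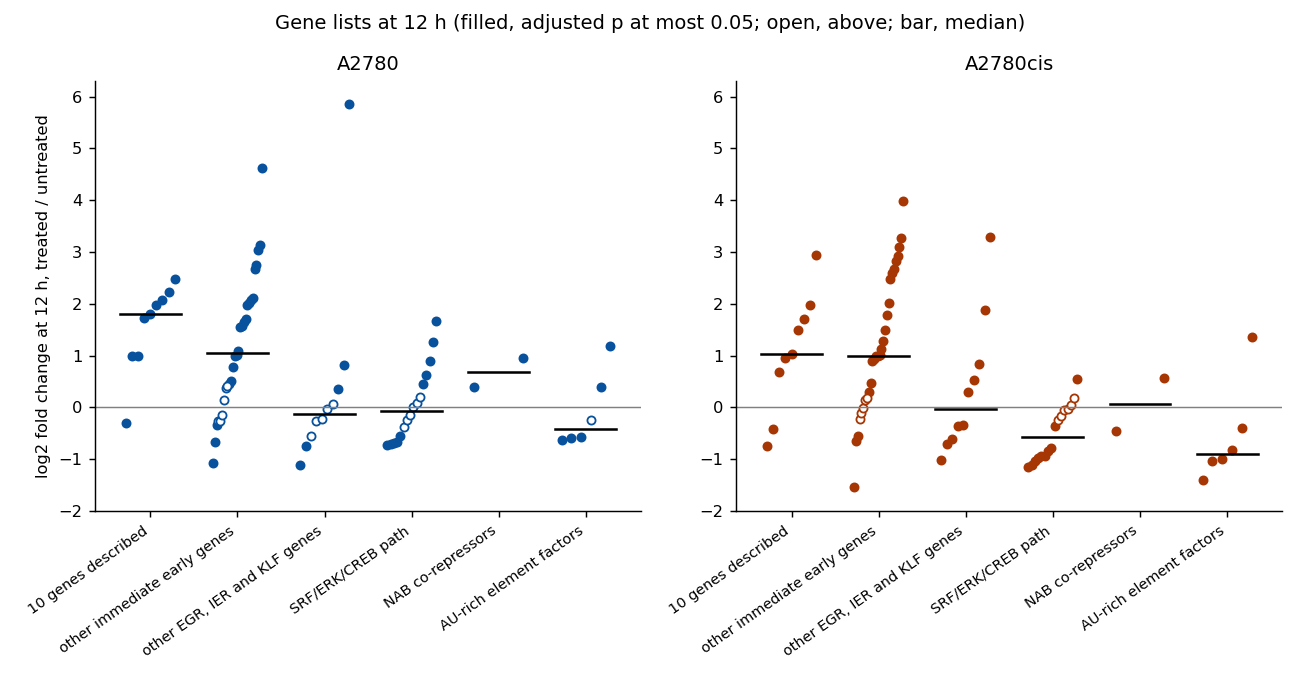
Log2 FC at 12 h (y axis) of every tested gene of each list in A2780 (left) and A2780cis (right), with filled points for an adjusted p of at most 0.05 and bars for the median, which for the first list is 1.80 in A2780 and 1.03 in A2780cis. Other immediate early genes lie mostly above 0, and in A2780cis most genes of the SRF, ERK and CREB path and of the AU-rich element factors lie under it.

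The genes whose log2 CPM followed these genes most closely over the 24 libraries were sought for the gene of each family with the highest mean log2 CPM. For EGR1 they were GPRASP2 (r = 0.978), BHLHE40 (r = 0.957) and TP53INP2 (r = 0.949). For IER5 they were GADD45B (r = 0.977), CSRNP1 (r = 0.974) and SERTAD1 (r = 0.971). For KLF10 they were PFKFB2 (r = 0.955), UBXN2B (r = 0.950) and CSGALNACT2 (r = 0.945). The 24 libraries are 8 groups of 3, so these values of Pearson's r describe agreement over few distinct conditions. GADD45B, SERTAD1, CSRNP1 and BHLHE40 are themselves known as rapidly inducible genes.

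The 10 genes are short. In GENCODE release 44 (GRCh38) their spans run from 1350 bp for IER3 to 9286 bp for KLF6, with a median of 5066 bp, while 13882 protein-coding genes, the tested ones and KLF4, had a median span of 33136 bp. All 10 spans were under 10 kb, as were 18.9% of these genes. IER5 has 1 exon and KLF4 has 5, and the others have 2 to 4 in their canonical transcript. The AU-rich pentamer ATTTA occurred in the 3′ UTR of 9 of the 10 genes and of 70.8% of these genes. Its density was highest in IER3, with 6 pentamers or 8.14 per kb, then in IER5 with 3.32 per kb, and IER2 had none. The median was 1.96 per kb for the 10 genes and 1.62 for all.

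No pair of the 10 genes overlaps. In GRCh38 coordinates, EGR1 on chromosome 5 at 138465479-138469303, IER5 on chromosome 1 at 181088700-181092900 and IER2 on chromosome 19 at 13150411-13154911 are on the plus strand, as is KLF2 on chromosome 19 at 16324826-16328685. On the minus strand are EGR2 on chromosome 10 at 62811996-62819167, KLF6 on chromosome 10 at 3775996-3785281, IER3 on chromosome 6 at 30743199-30744548 and KLF4 on chromosome 9 at 107484852-107490482. EGR3 on chromosome 8 at 22687659-22693480 and KLF10 on chromosome 8 at 102648784-102655725 are on the minus strand as well.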

How the data were processed

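Per the labels, the authors demultiplexed reads with bcl2fastq, trimmed them with Trimmomatic, aligned them to GRCh38.p7 with STAR 2.5.2b and counted reads per gene over exons with featureCounts. The deposited values are expected counts, since fractional counting left 9.50% to 12.8% of the entries of each library not whole. The strand setting of the counting is not given in the sources used here. The authors tested genes with DESeq2, and none of those results were used.

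Counts were rounded, and genes were kept by edgeR's filterByExpr (a minimum count of 10 and a minimum total of 15), which left 20240 of 63299 genes. edgeR 4.0.16 (R 4.3.3) was run with TMM scaling and its two-sided quasi-likelihood test, with 1 coefficient for each of the 8 groups over 24 libraries and 16 residual degrees of freedom. P-values were adjusted by Benjamini-Hochberg over all genes tested, with a threshold of 0.05. SE is the size of a log2 FC over the square root of F. Ranges of 11077368 to 21901406 counts per library set the precision, and a count of 0 allows up to 3 counts, for counting error only. Gene names, biotypes and positions came from GENCODE release 44, which matched 56948 of the 63299 identifiers. Exon overlaps came from it too, and whether the annotation used for counting held the overlapping genes was not checked. The steps were tested on simulated data in which few genes changed, in a single group and evenly in both directions. That test does not bear on the choice of scaling.

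The 10 genes, the lists and the tests were chosen with earlier results of these data known. All 10 genes were named, and of each list the 3 genes with the smallest adjusted p at 12 h in each line, except 1 gene that is not reported here. Genes of like pattern were the 3 with the highest Pearson correlation among those whose log2 CPM averaged at least 2. Alternatives were other scalings (DESeq2 size factors, library size, ribosomal protein genes), no filter, counts not rounded, the compared groups alone, no lncRNA or rRNA genes, the Wald test of DESeq2 1.42.0, a replicate block and each library left out.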

Additional observations from a re-analysis of the deposited data

Results flagged for a closer look

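The treatment effect of 5 of the 9 genes differed between the lines at 6 h or 12 h by an interaction test in edgeR, and that of 6 differed between 6 h and 12 h in at least 1 line. Over all genes, 3.07% differed between the lines at 6 h and 23.7% at 12 h. The effect was larger at 12 h than at 6 h for 10.7% of all genes in A2780 and 10.3% in A2780cis. As differences in log2 FC (A2780cis minus A2780, ± SE), the values at 6 h were 0.94 ± 0.19 (adjusted p = 0.00486) for IER2 and -0.78 ± 0.14 (adjusted p = 0.00185) for IER5. At 12 h they were -1.44 ± 0.17 (adjusted p = 1.69e-06) for EGR1, -2.66 ± 0.29 (adjusted p = 5.70e-07) for EGR2, 0.98 ± 0.18 (adjusted p = 3.49e-04) for IER2, -0.48 ± 0.13 (adjusted p = 0.0106) for IER5 and -1.12 ± 0.38 (adjusted p = 0.0343) for KLF2. Of these genes, EGR2 is the one whose effect passed the test in opposite directions in the lines. In A2780, the effect at 12 h exceeded that at 6 h by 1.00 ± 0.20 (adjusted p = 7.23e-04) for EGR1, 0.62 ± 0.18 (adjusted p = 0.0152) for IER2, 1.10 ± 0.21 (adjusted p = 6.65e-04) for IER3, 0.39 ± 0.14 (adjusted p = 0.0425) for IER5 and 0.53 ± 0.16 (adjusted p = 0.0195) for KLF10. In A2780cis it did so by 0.82 ± 0.28 (adjusted p = 0.0327) for EGR3, 0.66 ± 0.19 (adjusted p = 0.0122) for IER2, 1.10 ± 0.21 (adjusted p = 6.37e-04) for IER3 and 0.69 ± 0.13 (adjusted p = 5.83e-04) for IER5. With 1 library left out, the KLF2 difference at 12 h, the IER5 gain in A2780 and the EGR3 gain in A2780cis lost their calls in 8, 8 and 7 of 12 fits. The KLF10 gain in A2780 and the IER2 gain in A2780cis lost theirs in 2 and 1. Comparisons across time and across lines use the same libraries, so these values are not independent of each other. Groups of 3 libraries are too small for the test of single outlying libraries, and none was run.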

How the results depend on the processing

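No call of the 9 genes turned its direction under any alternative. Libraries with the same replicate number showed little correlation within a line and time (-0.25 to 0.31, with 1 of 12 over 0.1). With a replicate block the number of the 9 genes called was the same in all 12 comparisons. For treatment it was 7 in A2780 and 7 in A2780cis at 6 h, and 9 in each line at 12 h. Of all tested genes, however, more were called with that block than without it in each of the 12 comparisons. Whether the replicate number marks libraries that were handled together was not tested. Scaling on 82 ribosomal protein genes changed most: of the 9 genes it called 2 instead of 7 for treatment in A2780 at 6 h, 4 instead of 7 in A2780cis at 6 h, 0 instead of 2 for the difference between lines at 6 h, 2 instead of 5 for the gain with time in A2780, 0 instead of 4 in A2780cis and 1 instead of 4 for untreated A2780cis over time, for which scaling by library size called 2. With 1 library left out, 3 to 5 gains with time were called in A2780 (3 without untreated replicate 3 or treated replicate 1 of 12 h) and 1 to 2 differences of untreated A2780 over time (1 without replicate 1 of 6 h or replicate 2 or 3 of 12 h). The cause was not tested. Depth limits EGR2, EGR3 and KLF2 in untreated A2780 (2 to 25 counts per library) and KLF4 in all libraries (at most 9).

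In results that did not pass the test, the direction of the log2 difference turned as follows. With the size factors of DESeq2, it turned for EGR2 for treatment in A2780cis at 6 h (-0.0062). With scaling by library size, it turned for KLF6 for untreated cells over time in A2780 (0.040), IER3 for untreated cells over time in A2780cis (0.073) and KLF2 for untreated cells over time in A2780cis (0.13). With scaling on ribosomal protein genes, it turned for EGR2 for treatment in A2780cis at 6 h (-0.095), KLF6 for the difference between lines at 6 h (-0.089), KLF6 for untreated cells over time in A2780 (0.21), KLF10 for untreated cells over time in A2780 (0.022), IER3 for untreated cells over time in A2780cis (0.19) and KLF2 for untreated cells over time in A2780cis (0.27). With no filter, it turned for KLF6 for untreated cells over time in A2780 (0.00098) and KLF2 for untreated cells over time in A2780cis (0.0029). With a fit of the compared groups alone, it turned for IER3 for the difference between lines at 6 h (0.018), IER3 for the difference between lines at 12 h (0.026), KLF10 for the difference between lines at 12 h (0.021) and KLF2 for untreated cells over time in A2780cis (0.028). With lncRNA and rRNA genes left out, it turned for IER3 for the difference between lines at 6 h (0.037) and KLF2 for untreated cells over time in A2780cis (0.037). With the Wald test of DESeq2, it turned for EGR2 for treatment in A2780cis at 6 h (-0.0053). With 1 library left out, values that spanned 0 ran over these ranges: EGR1 for the gain with time in A2780cis (-0.22 to 0.034), EGR2 for treatment in A2780cis at 6 h (-0.057 to 0.11), IER2 for untreated cells over time in A2780cis (-0.036 to 0.21), IER3 for the difference between lines at 12 h (-0.23 to 0.11), IER3 for the difference between lines at 6 h (-0.18 to 0.075), IER3 for untreated cells over time in A2780cis (-0.25 to 0.090), IER3 for untreated lines at 6 h (-0.091 to 0.015), IER5 for untreated cells over time in A2780 (-0.011 to 0.12), KLF10 for the difference between lines at 12 h (-0.11 to 0.091), KLF2 for untreated cells over time in A2780 (-0.56 to 0.15), KLF2 for untreated cells over time in A2780cis (-0.14 to 0.11), KLF6 for the difference between lines at 6 h (-0.11 to 0.17) and KLF6 for untreated cells over time in A2780cis (-0.074 to 0.20).

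Over all genes, scaling on ribosomal protein genes called 2883 instead of 5950 for treatment in A2780 at 6 h, 3798 instead of 6212 for treatment in A2780cis at 6 h, 69 instead of 622 for the difference between lines at 6 h, 8208 instead of 4790 for that at 12 h, 1891 instead of 4793 for the gain with time in A2780 and 4548 instead of 8083 for untreated A2780cis over time. By that scaling the share of higher among all calls moved, with the median log2 difference of all genes under it in brackets, from 41.0% to 3.19% (-0.63) for the difference between lines at 12 h, from 45.1% to 71.4% (0.11) for the gain with time in A2780, from 43.1% to 9.58% (-0.39) for that in A2780cis, from 61.7% to 97.6% (0.24) for untreated A2780 over time, from 45.2% to 95.9% (0.17) for untreated A2780cis over time, from 52.2% to 25.6% (-0.30) for untreated lines at 6 h and from 48.0% to 25.1% (-0.28) for untreated lines at 12 h. By library size it moved from 41.0% to 27.0% for the difference between lines at 12 h, from 45.1% to 69.7% for the gain with time in A2780, from 61.7% to 71.9% for untreated A2780 over time and from 45.2% to 74.6% for untreated A2780cis over time. Single libraries moved such counts too. Without untreated A2780 replicate 1 of 6 h, 3805 genes were called for treatment in A2780 at 6 h, 357 for the difference between lines at 6 h and 1846 (of 5435) for untreated A2780 over time, which had 2324 without replicate 3 of 12 h. Treatment in A2780 at 6 h had 3963 calls without treated replicate 1. The difference between lines at 6 h had 408, 391 and 372 without replicate 2 of treated A2780, untreated A2780cis or treated A2780cis, and untreated A2780cis over time had 4985 without replicate 3 of 12 h.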
